A study of Mus musculus with 6 samples.

Results

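The 10 genes described here belong to the aldehyde dehydrogenase family: Aldh1b1, Aldh2, Aldh3a2, Aldh3b1, Aldh4a1, Aldh6a1, Aldh7a1, Aldh9a1, Aldh16a1 and Aldh18a1. They were taken by name from a table of 55335 mouse genes, and 10 of 10 were found. They had been picked because Aldh1b1 was lower after ultrasound and the family leaned lower, so their differences between the groups are given below as a description. Counts of members that passed a test are set beside the share of all tested genes, and nothing is read from them. RNA was sequenced from RAW 264.7 cells, a mouse macrophage line of wild-type genotype per the labels. All 6 libraries came from cells given lipopolysaccharide (LPS, a bacterial product that activates macrophages) at 200 ng/ml for 8 h. In 3 of them LPS was the only agent. In the other 3, ultrasound was added for 10 min during the LPS period, with an intensity of 50 mW/cm², 1 MHz waves and pulses of 200 µs repeated at 1 kHz (duty cycle 20%). No library without LPS was analysed here, and the model is a single cell line. The labels do not say whether libraries came from separate cultures, so the spread between libraries may be technical.

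Aldehyde dehydrogenases oxidise reactive aldehydes to carboxylic acids, or in a few cases to acyl-CoA, with NAD or NADP as the electron acceptor. The aldehydes come from alcohols, amino acids, amines and the peroxidation of membrane lipids, and in activated macrophages the oxidative burst is a source of lipid aldehydes. Several members sit in the mitochondrial matrix, some in the cytosol and a few on membranes. Some members have narrow metabolic roles, such as a step in proline, valine or lysine metabolism.

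The libraries carried a macrophage profile. Of 11 macrophage markers, 10 averaged 1 FPKM or more (fragments per kilobase of transcript, scaled to the mapped fragments of the library), and their summed level was 2563 to 2827 FPKM in the LPS libraries and 2620 to 2879 in the ultrasound libraries. None of 5 hepatocyte, 6 fibroblast and 5 neutrophil markers reached that mean. Of 14 skeletal muscle markers 1 did, the fast troponin gene Tnni2, with a mean of 28.4 FPKM. Of 5 dendritic cell markers Itgax and Ccr7 did. LPS library 2 stood apart, at 28.8 on the first principal component against 1.73 and 2.03 for LPS libraries 1 and 3. Ultrasound libraries 1, 2 and 3 lay at -13.9, -0.957 and -17.7. Every LPS library was thus above every ultrasound library, and library 2 was the highest in both groups. FPKM sums per library were 278871 to 292200. The number of reads behind a value is not given in the sources used here, so no counting error can be stated. In these bulk samples, fewer cells of a type and less RNA per cell cannot be told apart.

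Gene models bear on which values can be read gene by gene. Aldh1b1 is annotated with 2 exons in its longest coding transcript, against 10 to 19 for the other 9 genes. Its nearest relative within the family by coding sequence was Aldh2, with 69.7% of 1551 aligned bases identical. Still, no stretch of 75 bases of Aldh1b1 or of Aldh2 occurred in a transcript of another gene. For Aldh3b1, 2.89% of such stretches were shared with other genes, led by its neighbours Aldh3b3 and Aldh3b2. Aldh4a1 is the uncertain member, since 32.5% of its exonic bases are also exons of Gm21969 on the same strand and reads there cannot be told apart. On the opposite strand, exons of other genes cover 18.6% of the exonic bases of Aldh6a1 (Bbof1), 9.19% of those of Aldh7a1 (Phax and a clone-named gene), 2.65% of Aldh16a1 (Pih1d1) and 2.54% of Aldh2 (Gm42879). The sources used here do not state whether strand was kept, so these values could hold reads of the partner.

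Upstream sequences are shown for the 2 members with the largest differences, Aldh1b1 and Aldh18a1, and for Aldh9a1, the most abundant member, whose level was nearly equal in both groups. Windows of 250 bases before the annotated start were taken from RefSeq on GRCm38.p6, which had 8 of the 10 genes and not Aldh2 or Aldh7a1. None of the 3 windows shown overlaps an annotated exon. They read 5′ to 3′ on the strand of the gene. Capitals mark matches, on either strand, to the CCAAT box CCAAT, the GC box GGGCGG, the E-box CACGTG, an NF-kB core, an antioxidant response core TGACNNNGC or an amino acid response core TGATGNAA.
Aldh1b1 upstream, chr4:45798772-45799021, plus strand: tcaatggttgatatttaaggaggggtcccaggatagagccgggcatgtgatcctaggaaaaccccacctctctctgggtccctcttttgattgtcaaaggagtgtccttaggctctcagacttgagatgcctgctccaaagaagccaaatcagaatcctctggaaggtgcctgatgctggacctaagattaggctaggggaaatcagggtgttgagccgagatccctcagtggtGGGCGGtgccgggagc
Aldh18a1 upstream, chr19:40588464-40588713, minus strand: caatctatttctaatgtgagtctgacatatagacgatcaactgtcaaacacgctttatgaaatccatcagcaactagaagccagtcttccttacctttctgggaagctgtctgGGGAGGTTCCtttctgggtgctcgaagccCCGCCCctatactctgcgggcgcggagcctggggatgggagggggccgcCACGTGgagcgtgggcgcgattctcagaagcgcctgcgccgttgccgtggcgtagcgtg
Aldh9a1 upstream, chr1:167349741-167349990, plus strand: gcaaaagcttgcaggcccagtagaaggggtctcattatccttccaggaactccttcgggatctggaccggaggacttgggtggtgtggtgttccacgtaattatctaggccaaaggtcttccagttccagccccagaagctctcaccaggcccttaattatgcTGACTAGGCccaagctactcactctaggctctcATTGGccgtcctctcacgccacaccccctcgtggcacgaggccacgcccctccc
The Aldh1b1 window held 1 match, a GC box 16 bases before the start. The Aldh18a1 window held a GC box, an E-box and an NF-kB core, and the Aldh9a1 window a CCAAT box and an antioxidant response core. The E-box, which reads the same on both strands, was in 6.02% of all 32851 windows, the NF-kB core in 1.21% and the antioxidant core in 10.2%. The GC box was in 32.7% of windows and the CCAAT box in 33.9%. The amino acid response core, present in 3.45% of all windows, matched none of the windows of the 8 genes. A match is only a description of letters, and no overlap between matches occurred in the 3 windows shown.

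The family was carried by 3 genes. Over the 6 libraries Aldh9a1 averaged 50.0 FPKM, Aldh2 39.3 and Aldh3b1 27.8, and together they made up 70.3% to 78.2% of the summed FPKM of the 10 genes. Aldh3a2 at 14.7 FPKM and Aldh18a1 at 11.6 followed, then Aldh1b1 at 5.07. Aldh6a1 and Aldh7a1 lay at 2.41 and 2.40, Aldh4a1 at 2.00 and Aldh16a1 at 1.73. Among the 11270 tested genes, those averaging 1 FPKM or more, these levels ran from percentile 10.5 for Aldh16a1 to percentile 91.2 for Aldh9a1, and Aldh1b1 stood at percentile 36.3. The ranges of Aldh9a1, Aldh2, Aldh3b1 and Aldh3a2 did not overlap one another over the 6 libraries. Those of Aldh3a2 and Aldh18a1 did, with Aldh3a2 higher in 5 of 6 libraries. Aldh1b1 was above Aldh6a1 in 6 of 6 libraries, although the ranges overlapped. Below that, each gene exceeded the next in 4 of 6 libraries, so the order of Aldh6a1, Aldh7a1, Aldh4a1 and Aldh16a1 was not settled.

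**Figure D1:**
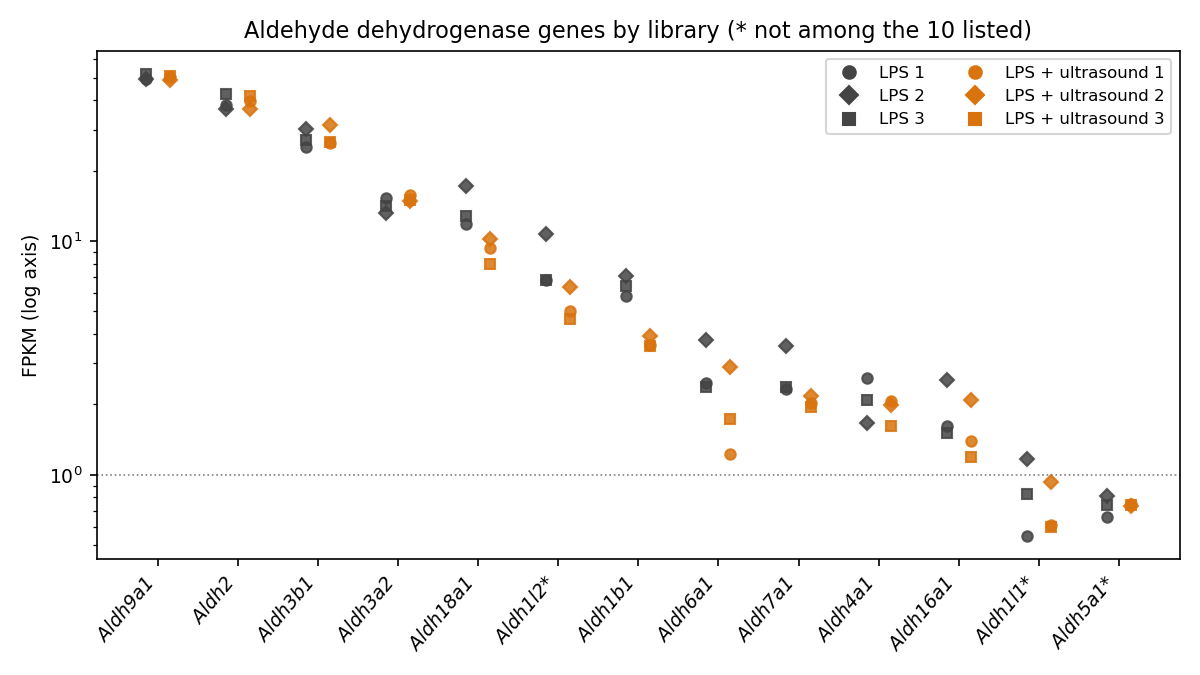
FPKM of the 10 genes and of 3 other family members (asterisks) in each library, on a log axis, with LPS in grey, LPS plus ultrasound in orange and the marker shape giving the library number. The dotted line is 1 FPKM, and Aldh9a1, Aldh2 and Aldh3b1 sit at the top with both groups at the same height, while for Aldh1b1 every orange point lies under every grey one.

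Aldh1b1, a mitochondrial enzyme that oxidises acetaldehyde and other short-chain aldehydes, was the member with the largest difference. Its level was 5.81, 7.05 and 6.42 FPKM in LPS libraries 1, 2 and 3, and 3.61, 3.94 and 3.57 in the ultrasound libraries. The groups did not overlap, and the lowest LPS library was above the highest ultrasound library by more than the spread within either group. The means were 6.43 ± 0.623 FPKM (SD, n = 3) with LPS and 3.71 ± 0.201 with ultrasound, a level 42.3% lower. On the log2(FPKM + 1) scale, which understates the change of low genes, the difference was -0.66 ± 0.10 (limma, ± SE), and -0.60 without LPS library 2. This difference is one of the values by which the family was chosen.

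Aldh2, the close relative of Aldh1b1 in the same compartment and the main enzyme of acetaldehyde oxidation, had nearly equal means. It had 38.2, 36.9 and 42.8 FPKM with LPS and 39.6, 36.6 and 41.7 with ultrasound. Library 2 was the lowest and library 3 the highest in both groups, and the groups overlapped. The difference was 0.00 ± 0.09 on the log2 scale, and its sign turned with equal library sums, quantile normalization and 4 of the fits without 1 library. In every library Aldh2 was more abundant than Aldh1b1.

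Of the pair of enzymes around pyrroline carboxylate, the intermediate between glutamate and proline, Aldh18a1 had separate groups and Aldh4a1 overlapping ones. Aldh18a1 encodes pyrroline carboxylate synthase, which starts proline synthesis from glutamate. It had 11.8, 17.2 and 12.8 FPKM with LPS against 9.37, 10.2 and 7.99 with ultrasound, so the groups did not overlap. LPS library 2 stood above the other LPS libraries. The difference was -0.54 ± 0.15 on the log2 scale, and -0.39 without LPS library 2. Aldh4a1, the mitochondrial dehydrogenase of proline breakdown, had 2.60, 1.66 and 2.10 FPKM with LPS and 2.07, 1.99 and 1.61 with ultrasound. Its groups overlapped, the difference was -0.10 ± 0.14, and without LPS library 1 it was 0.01.

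The other 2 mitochondrial members of amino acid breakdown were lower on average. Aldh6a1, the methylmalonate semialdehyde dehydrogenase of valine and thymine breakdown, which yields an acyl-CoA, had 2.48, 3.77 and 2.37 FPKM with LPS. With ultrasound it had 1.23, 2.89 and 1.73 FPKM, so ultrasound library 2 lay above 2 of the LPS libraries and the groups overlapped. Still, each ultrasound library was below the LPS library of its number. The difference was -0.41 ± 0.23 on the log2 scale. That standard error was the largest of the 10 genes in the fit without a block for the replicate number. The difference ran from -0.63 without ultrasound library 2 to -0.23 without ultrasound library 1. Aldh7a1, the antiquitin gene, whose product oxidises the semialdehyde of lysine breakdown, had 2.32, 3.56 and 2.37 FPKM with LPS and 2.04, 2.17 and 1.95 with ultrasound. The groups did not overlap, but LPS library 2 held most of the distance. The difference was -0.28 ± 0.14 and became -0.13 without that library.

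The membrane-bound members were level or slightly higher. Aldh3a2, the fatty aldehyde dehydrogenase of the endoplasmic reticulum, which also handles the aldehyde released from sphingolipids, had 15.2, 13.2 and 14.1 FPKM with LPS and 15.7, 14.8 and 15.1 with ultrasound. The groups overlapped, yet each ultrasound library exceeded the LPS library of its number, and the difference was 0.10 ± 0.08. Aldh3b1, which acts on lipid-derived aldehydes, had 25.3, 30.1 and 27.1 FPKM with LPS and 26.4, 31.2 and 26.4 with ultrasound. Library 2 was the highest in both groups, and the difference of 0.02 ± 0.10 changed sign without LPS library 1, without ultrasound library 2 and with array weights.

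Aldh9a1, a cytosolic enzyme of carnitine synthesis that also oxidises amine-derived aldehydes, was the steadiest member. It had 49.4, 49.3 and 51.9 FPKM with LPS and 50.2, 48.6 and 50.6 with ultrasound. The spread within a group was 2.87% of the mean with LPS and 2.10% with ultrasound, and the difference of -0.01 ± 0.06 changed sign with median-ratio scaling, without LPS library 3 and without ultrasound library 2. Aldh16a1, an atypical member of the family, had 1.61, 2.55 and 1.51 FPKM with LPS and 1.39, 2.10 and 1.20 with ultrasound. Library 2 was the highest in both groups and the groups overlapped, yet each ultrasound library was below the LPS library of its number. The difference was -0.17 ± 0.18 and became -0.01 without LPS library 2.

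**Figure D2:**
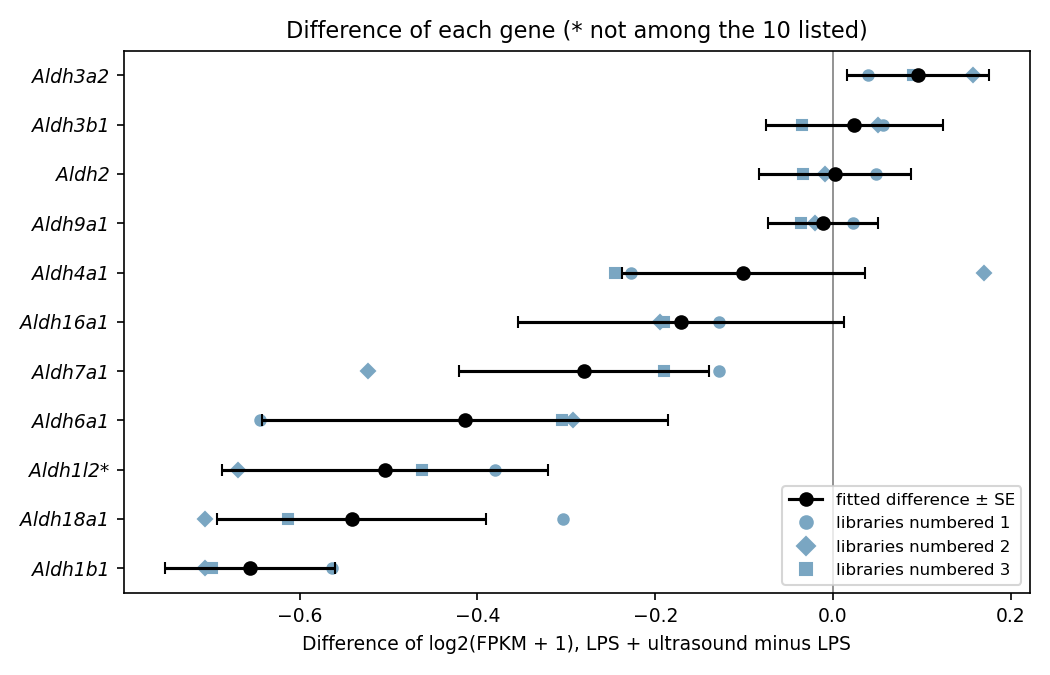
Ultrasound libraries minus LPS libraries as a difference of log2(FPKM + 1) for the 10 genes and Aldh1l2 (asterisk), with the limma estimate ± SE in black and the differences between same-numbered libraries in blue. Aldh1b1, Aldh18a1 and Aldh1l2 lie farthest to the left at -0.66, -0.54 and -0.50, and Aldh2 and Aldh9a1 lie at 0.

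Counted over the 10 genes, 7 were lower and 3 higher with ultrasound, where 53.9% of all 11270 tested genes were lower. Through Aldh2 and Aldh9a1, whose differences lie near 0, the count of lower members was 6 with median-ratio scaling and 8 with equal library sums or quantile normalization. The median difference was -0.14 for the 10 genes and -0.02 for all tested genes. The groups did not overlap for 3 members, Aldh1b1, Aldh18a1 and Aldh7a1, all lower (13.4% of all tested genes), and for 0 members in the higher direction (9.8% of all). In 5 members the ultrasound library was the lower one in 3 of 3 same-numbered pairs (30.9% of all). By limma, at an adjusted p below 0.05 (Benjamini-Hochberg), 0 members were called lower and 0 higher, against 0% and 0.0177% of all tested genes. At an unadjusted limma p below 0.05, 2 members were lower and 0 higher (9.16% and 6.18% of all). With a block for the replicate number, limma called 0 members (0.0799% of all lower, 0.0355% higher), and 4 were lower at an unadjusted p below 0.05 (17.1% of all). Because the members were picked on this comparison, nothing is read from these counts. The summed level of the family was 161 ± 5.58 FPKM with LPS and 153 ± 1.66 with ultrasound (SD, n = 3), with 154.8 in the lowest LPS library and 154.6 in the highest ultrasound library.

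Library 2 held a marked place within both groups. LPS library 2 also enters the difference by which the members were picked, so its place is not independent of that choice and is given as a description. Among the LPS libraries, library 2 was the highest for 6 members and the lowest for the other 4. Among the ultrasound libraries it was the highest for the same 6, namely Aldh1b1, Aldh3b1, Aldh6a1, Aldh7a1, Aldh16a1 and Aldh18a1, and the lowest for Aldh2, Aldh3a2 and Aldh9a1. So 9 of 10 members had library 2 at the same extreme in both groups, where 51.6% of all tested genes did. Over all tested genes, library 2 was at either extreme for 76.9% among the LPS libraries and 82.2% among the ultrasound libraries. In LPS library 2, Aldh6a1, Aldh16a1, Aldh18a1 and Aldh7a1 were 0.32, 0.31, 0.31 and 0.30 above their group mean on the log2 scale. In ultrasound library 2 those deviations were 0.44, 0.29, 0.14 and 0.06. Aldh18a1 and Aldh7a1 thus deviated less there, while Aldh6a1 deviated more, and none of these differences in deviation was tested. Aldh4a1 was the exception, 0.22 below its mean in LPS library 2 and 0.05 above it in ultrasound library 2. What set library 2 apart was not tested.

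**Figure D3:**
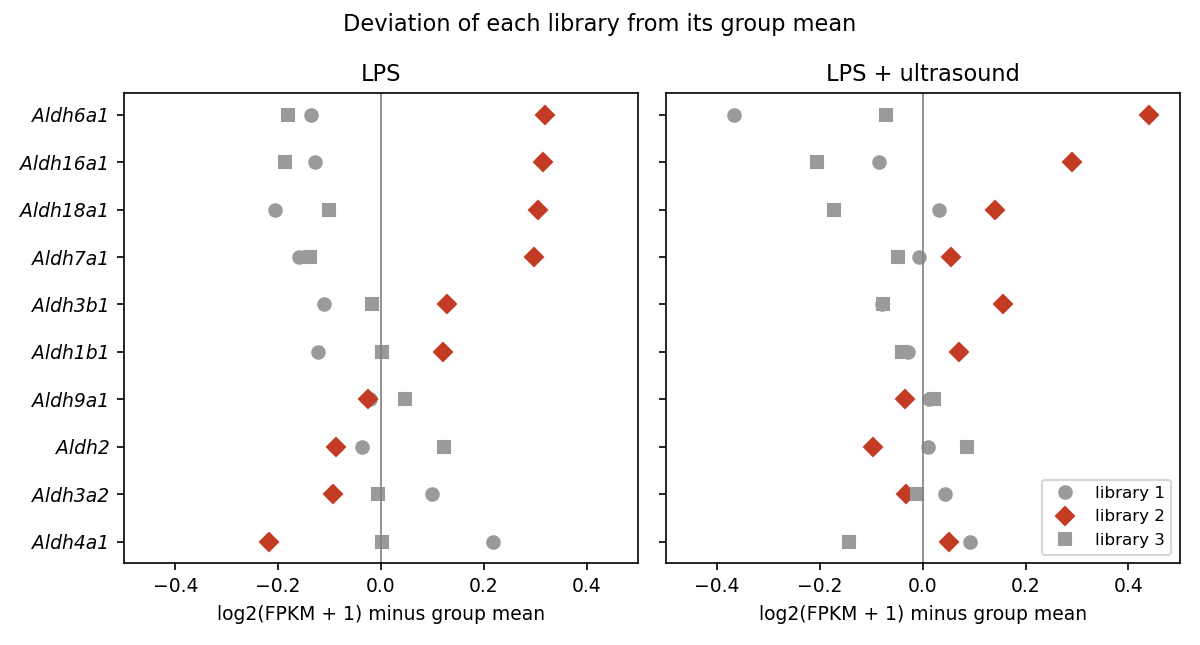
Deviation of each library's log2(FPKM + 1) from its group mean, LPS at left and LPS plus ultrasound at right, with library 2 in red and libraries 1 and 3 in grey. Library 2 is on the right for the same 6 genes in both panels and on the left for Aldh2, Aldh3a2 and Aldh9a1, and only Aldh4a1 changes side.

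The mouse family has 11 further annotated genes in the table, which were not among the 10. Aldh1l2, the mitochondrial formyltetrahydrofolate dehydrogenase of folate metabolism, was the only one with a mean of at least 1 FPKM. It had 6.84, 10.7 and 6.79 FPKM with LPS and 5.02, 6.36 and 4.66 with ultrasound, so every ultrasound library was below every LPS library. The difference of -0.50 ± 0.18 did not pass (limma, adjusted p = 0.28 by Benjamini-Hochberg, or 0.063 in the fit with the replicate block). Its cytosolic counterpart Aldh1l1 averaged 0.781 FPKM and Aldh5a1, the succinic semialdehyde dehydrogenase, 0.741. The groups overlapped for both. The remaining 8, which include the retinaldehyde dehydrogenases Aldh1a1, Aldh1a2 and Aldh1a3, each had a mean below 0.1 FPKM, and Aldh1a7 was listed at 0 in all 6 libraries.

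Aldh18a1 was the member nearest to Aldh1b1 in pattern across the 6 libraries, with a root-mean-square distance of 0.13 between log2 profiles centred on their own means. The farthest was Aldh3a2 at 0.40. This distance includes the group difference on which the members were picked, so the order of the members is a description only. Apart from the listed members, 6688 genes averaging 5 FPKM or more were compared with Aldh1b1 in the same way over the 6 libraries. Genes without a symbol or with a provisional or clone-based one were left out, and Aldh1l2 was kept. The nearest 5 were Acap1, a GTPase-activating protein gene for Arf proteins, at 0.059, the centromeric histone gene Cenpa at 0.060 and the spindle checkpoint kinase gene Bub1b at 0.077. Ly6e, which encodes a membrane-anchored surface protein, followed at 0.077 and Grhpr, the glyoxylate and hydroxypyruvate reductase gene, at 0.079. Every ultrasound library was below every LPS library in each of these 5 genes, which follows from choosing them by the profile of Aldh1b1. Their levels differed, from 5.01 FPKM for Cenpa to 17.5 for Bub1b over the 6 libraries.

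Genes of the pathways that feed the members or use the same aldehydes gave no calls. Over 9 lists, 91 genes were tested, 49 lower and 42 higher with ultrasound, where 53.9% of all tested genes were lower. By limma, at an adjusted p below 0.05 (Benjamini-Hochberg), 0 of the 91 passed, where 0% of all tested genes were called lower and 0.0177% higher. With the replicate block 0 passed as well (0.0799% of all lower, 0.0355% higher). With calls this rare among all genes, nothing is read from their absence here. At an unadjusted limma p below 0.05, 6 genes were lower and 3 higher (9.16% and 6.18% of all tested genes). The groups did not overlap for 9 lower and 6 higher genes (13.4% and 9.8% of all). The median difference of the 91 genes was -0.03, against -0.02 for all tested genes.

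Around proline and glutamate, where Aldh18a1 and Aldh4a1 act, 6 of 9 tested genes were lower and 3 higher, with a median difference of -0.05. Asns, the asparagine synthetase gene, had 118, 130 and 118 FPKM with LPS and 109, 79.0 and 98.7 with ultrasound, a difference of -0.36 ± 0.12 (limma, Benjamini-Hochberg adjusted p = 0.26). Glutamate dehydrogenase, Glud1, went the other way, at 50.8 ± 0.284 FPKM with LPS and 55.8 ± 1.29 with ultrasound (SD, n = 3). Its groups were also separate, and it missed the threshold (limma, Benjamini-Hochberg adjusted p = 0.35).

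In branched-chain amino acid breakdown, the pathway of Aldh6a1, 20 of 20 listed genes were tested and 13 were lower, with a median difference of -0.05. The methylmalonyl-CoA epimerase gene Mcee averaged 7.65 ± 0.888 FPKM with LPS and 5.87 ± 0.427 with ultrasound (SD, n = 3). Dld, the dihydrolipoamide dehydrogenase subunit shared by several complexes, had 58.0 ± 1.15 and 50.5 ± 1.76. Hibadh, which makes the substrate of Aldh6a1, had 6.80, 7.45 and 7.10 FPKM with LPS and 5.96, 5.93 and 5.93 with ultrasound. Groups were separate for these 3 of the 20 genes (13.4% of all tested genes were lower and separate). None passed (limma, Benjamini-Hochberg adjusted p = 0.25, 0.25 and 0.26).

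In the list of polyamine and amine oxidation, a source of aldehydes for Aldh9a1 and Aldh2, 4 of 4 tested genes were lower, 3 of them oxidases (53.9% of all tested genes were lower). Smox, the spermine oxidase gene, had 19.3, 18.9 and 21.8 FPKM with LPS and 17.1, 12.6 and 15.1 with ultrasound, and Sat1, the spermine and spermidine acetyltransferase gene, 30.9 ± 6.22 and 24.9 ± 1.76 (SD, n = 3). Maoa, a monoamine oxidase gene, had 5.74 ± 0.201 and 5.44 ± 0.401. Groups were separate for Smox and Sat1 and overlapped for Maoa. None passed (limma, Benjamini-Hochberg adjusted p = 0.22 for Smox, 0.37 for Sat1 and 0.72 for Maoa). Of the lysine, choline and carnitine list only 3 genes were tested. The carnitine transporter gene Slc22a5 had 3.12 ± 0.0713 FPKM with LPS and 2.73 ± 0.265 with ultrasound, with separate groups (limma, Benjamini-Hochberg adjusted p = 0.47).

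Other genes that supply or clear lipid aldehydes fell on both sides of 0. In the lipid peroxide list 8 of 11 tested genes were higher, with a median of 0.02, among them Ptgr1, a reductase of lipid-derived enals, with 8.75, 8.86 and 10.2 FPKM with LPS and 11.0, 11.5 and 10.7 with ultrasound. The glutathione transferase gene Gstm1 had 5.59, 3.00 and 5.81 FPKM with LPS and 6.03, 5.86 and 7.49 with ultrasound, with LPS library 2 far below the rest. Neither passed (limma, Benjamini-Hochberg adjusted p = 0.28 and 0.40). In the fatty aldehyde and sphingolipid list, around Aldh3a2, 6 of 8 tested genes were lower, with a median of -0.08, where 53.9% of all tested genes were lower. The desaturase gene of plasmalogen synthesis, Tmem189, was at 48.5 ± 6.98 and 58.0 ± 6.81 FPKM, Sgpp1 at 5.26 ± 0.389 and 4.85 ± 0.325 and Far1, which makes fatty alcohols, at 5.40 ± 0.376 and 5.03 ± 0.201 (SD, n = 3). The groups overlapped for these 3 (limma, Benjamini-Hochberg adjusted p = 0.39, 0.62 and 0.64).

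**Figure D4:**
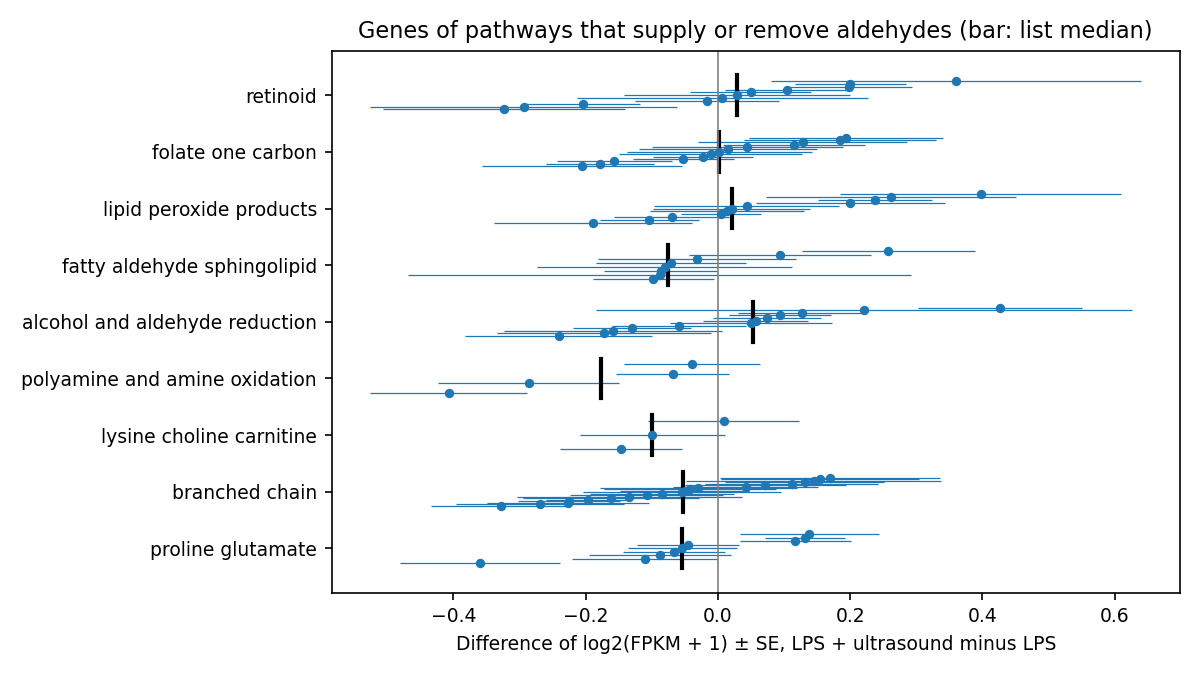
Ultrasound libraries minus LPS libraries as a difference of log2(FPKM + 1), ± SE, for each tested gene of the 9 pathway lists, 1 list per row, with the list median as a black bar. Points of every list except the 4 genes of polyamine and amine oxidation fall on both sides of 0, and 0 of the 91 genes passed the threshold.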

How the data were processed

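RNA of 6 RAW 264.7 libraries (3 LPS, 3 LPS plus ultrasound) was represented by FPKM values that the authors computed and deposited for 55335 mouse Ensembl identifiers. The software and the mouse build behind them are not stated in the labels or the file header (not given in the sources used here). A rat build, mRatBN7.2, stands in the submitters' processing notes and the labels' protocols describe rat muscle, while all identifiers are mouse ones. Symbols came from GENCODE M21, which named 55154 identifiers, and columns were matched to sample titles by initial and number.

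The 11270 genes averaging 1 FPKM or more were fitted in limma 3.58.1 (R 4.3.3) as log2(FPKM + 1), with trended, robust moderation, two-sided, Benjamini-Hochberg adjusted over all genes tested, threshold 0.05. FPKM is relative to each library's total, so abundant genes that move shift the others. The test was checked on simulated data, but the outcome is not given here and nothing is read from that check. Deviations from group means correlated at 0.18, 0.44 and 0.41 between same-numbered libraries, across genes. On these values and the titles the libraries may be paired by number, with the weakest correlation for number 1. The differences and standard errors given come from the fit without a block, and the fit with the replicate block is an alternative. The block left the differences of the members unchanged and made the standard error of every member smaller. For Aldh6a1 it was 0.10 with the block against 0.23 without, and for Aldh4a1 0.11 against 0.14.

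The members and lists were chosen with earlier results of these data known. All 10 members are named, other family genes that average 0.1 FPKM or more, the 3 genes with the smallest p per pathway list and the 5 genes nearest to Aldh1b1. Some genes that this rule takes are not reported here. Coding identity was computed with Biopython 1.88. Alternatives were the pseudocount, filter, scaling, moderation, array weights, the replicate block and omission of each library. Omission of both libraries numbered 2 was added after seeing the data. Protein sequences were not used here.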

Additional observations from a re-analysis of the deposited data

How the results depend on the processing

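The number of called members stayed at 0 under every alternative except array weights, where 1, Aldh1b1, passed. With array weights 223 of 11270 tested genes passed. Aldh1b1 is the gene by which the family was picked, so nothing is read from its call. The called pathway genes stayed at 0 in all alternatives. The number of lower members was 3 of 6 with a filter at a mean of 5 FPKM, since 4 members drop out there, and 6 to 8 when a library was left out. The median difference, -0.14 over the 10 members, was -0.00476 over the 6 that pass the filter at 5 FPKM and ran from -0.22 to -0.05 when a library was left out. Of all tested genes, 2 were called, against 1 with the filter at 5 FPKM, 5 with equal library sums, 223 with array weights, 13 with the replicate block, 6 without both libraries numbered 2, and 2 to 8 when a library was left out (4 without LPS library 1, 8 without LPS library 2 and 4 without LPS library 3). The cause was not tested. The replicate block changed no call of a member or pathway gene. Aldh1b1, Aldh18a1, Aldh6a1, Aldh7a1 and Aldh16a1 were lower and Aldh3a2 higher in all 16 or 17 alternatives that kept them, and Aldh1b1 ran from -0.78 (pseudocount 0.1) to -0.60 (without LPS library 2). Aldh2, Aldh3b1, Aldh9a1 and Aldh4a1 changed sign in 6, 3, 3 and 1 of them. There were 3 libraries a group and no read counts. The differences of Aldh2, Aldh3b1, Aldh9a1, Aldh4a1 and Aldh16a1 are smaller than their standard errors without the block. With the replicate block the standard error of Aldh16a1 is 0.07 for a difference of -0.17.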

Other observations

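Genes of alcohol oxidation and aldehyde reduction, many of which share substrates with the family, were higher in 7 of 12 tested genes. Cat, the catalase gene, which can also oxidise ethanol, had 56.1, 48.0 and 49.2 FPKM with LPS and 66.9, 81.6 and 59.7 with ultrasound, so the groups did not overlap. The difference of 0.43 ± 0.12 did not pass (limma, adjusted p = 0.22 by Benjamini-Hochberg, or 0.10 in the fit with the replicate block). Adh5, the formaldehyde-clearing alcohol dehydrogenase gene, had 12.0 ± 1.19 and 10.9 ± 0.281 FPKM and the aldo-keto reductase gene Akr1b10 6.15 ± 0.287 and 5.12 ± 1.21 (SD, n = 3, limma, Benjamini-Hochberg adjusted p = 0.50 and 0.44). The groups were separate for Adh5 and overlapped for Akr1b10.

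Folate one-carbon genes, the setting of Aldh1l2, were lower in 6 of 13 tested genes, with a median of 0.00. The mitochondrial genes Shmt2 and Mthfd2 had 54.6 ± 1.24 and 48.3 ± 4.48 FPKM, and 30.9 ± 1.97 and 27.7 ± 2.25, and Mthfd1l 6.72 ± 1.29 and 5.68 ± 0.935 (SD, n = 3). Their groups overlapped (limma, Benjamini-Hochberg adjusted p = 0.35, 0.42 and 0.53). Of the retinoid genes 7 of 11 tested were higher. Rdh11, a retinal reductase gene, had 55.5 ± 5.24 and 63.7 ± 1.00 FPKM, the receptor gene Rxrb 20.7 ± 0.213 and 17.9 ± 1.74, and Dhrs9 7.07 ± 0.686 and 8.24 ± 0.508 (SD, n = 3, limma, Benjamini-Hochberg adjusted p = 0.32, 0.32 and 0.37). Groups were separate for Rdh11 and Rxrb and overlapped for Dhrs9.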
